A study of Mus musculus with 4 samples.

Results

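Alveolar type I (ATI) cells are the thin, flat cells that cover most of the gas-exchange surface of the lung, and alveolar type II (ATII) cells are the cuboidal cells that make surfactant and can give rise to ATI cells. The genes used to recognise ATI cells encode proteins of a thin barrier, among them a surface receptor, a water channel, membrane and scaffold proteins and parts of caveolae, the flask-shaped pits of the plasma membrane. Several of these proteins are also made by capillary endothelium, which lies against ATI cells and is equally thin, and by lymphatic vessels, fibroblasts or macrophages. In tumors dissociated whole, the level of such a gene therefore depends on which cells are in the sample.

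The genes examined were 10 ATI genes, Ager, Hopx, Pdpn, Aqp5, Cav1, Cavin2, Clic5, Akap5, Rtkn2 and Emp2, chosen by symbol from the 31055 features (31019 distinct symbols) of the deposited matrix, and all 10 were present. They were measured by droplet-based 3′ single-cell RNA-seq on total viable cells, sorted by exclusion of DAPI, from micro-dissected lung tumors of 4 female mice. All mice carried Lkb1XTR/XTR and Rosa26LSL-tdTomato. Lenti-Cre given into the trachea initiated the tumors, activated the tdTomato reporter and trapped Lkb1 by inverting the XTR cassette, which then expresses GFP. The 2 Restored mice also carried FLPo-ERT2, the tamoxifen-dependent recombinase that removes the trap, and the 2 Non-Restored mice lacked it. Tumors developed for 16 weeks, and per the sample labels all 4 mice received tamoxifen in 4 mg doses for 2 weeks before harvest. Lenti-Cre marks whichever cells it enters, so cells it did not enter carried the same alleles without Cre recombination. In Restored mice such cells could still lose the cassette through FLPo-ERT2. The paper reports raised Lkb1 across all their cell compartments and ascribes it to loss of the gene trap.

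The 4 mice were joined in a single matrix of 20351 cells and 58624795 unique molecular identifiers (UMIs), with a median of 1960 per cell. No file used here says which mouse a cell came from, and the files hold no cell barcodes with which shared cells could be counted. The matrix was therefore treated as 1 sample. Restored and Non-Restored mice were not compared, no test between conditions and no p-value is given, and unequal contributions of the mice to a cell class cannot be told apart from differences between classes. Levels are given as CPM, a gene's UMIs in a class scaled to a total of 1e+06 UMIs for that class, with 95% intervals that cover counting error only. Since reads come from the 3′ end, a gene's UMIs do not grow with its length, but genes also differ in how well they are captured, so levels were compared between classes for each gene and not between genes.

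The question was which ATI genes were also endothelial, stromal or myeloid in these tumors. Of 19488 cells kept, 15938 were assigned to a class by the number of that class's 10 markers seen in the cell, and no ATI gene examined here was among the markers. The classes included 865 alveolar epithelial, 1826 endothelial, 118 fibroblast, 7 mural, 1626 alveolar macrophage, 1892 C1q macrophage, 404 classical monocyte, 337 non-classical monocyte, 1840 neutrophil, 4077 T, 463 NK and 1961 B cells. Median depth ranged from 910.5 UMIs in neutrophils to 6757.5 in the 54 plasma cells, and it was 3906 in alveolar epithelial, 5515 in alveolar macrophage and 1891.5 in endothelial cells. The alveolar epithelial cells were the reporter-positive class, at 5616 CPM of TdTomato, against 196 CPM in endothelial cells and 108 CPM in B cells. Alveolar macrophages also carried the reporter, at 2700 CPM. The epithelial cells mixed ATII and ATI programs, so they are called alveolar epithelial and not ATI cells.

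The genes lie on 9 chromosomes of the mouse genome (build mm10, GENCODE vM21 annotation), and all are annotated as protein coding. Ager and Clic5 share chromosome 17, Ager at chr17:34597862-34600936 and Clic5 at chr17:44188584-44280172, both on the plus strand. Aqp5 (chr15:99590782-99594829), Cav1 (chr6:17306335-17341452), Cavin2 (chr1:51289126-51302960), Akap5 (chr12:76324891-76334153) and Rtkn2 (chr10:67979570-68059740) are also on the plus strand. Hopx (chr5:77086988-77115121), Pdpn (chr4:143267431-143299564) and Emp2 (chr16:10281749-10313968) are on the minus strand. Antisense genes overlap Hopx (Hopxos), Cav1 (Gm15581), Cavin2 (9330175M20Rik) and Rtkn2 (Gm16212). None of the sources used here says whether strand was used in counting, so reads of those pairs may not be separable.

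The upstream sequences of 4 genes are shown because they stand for the 4 patterns described below, namely epithelial (Ager), endothelial (Cav1), shared by epithelium and endothelium (Clic5), and shared with aerocytes and fibroblasts (Emp2). Each is the 250 bases before the RefSeq start on build GRCm38.p6 (mm10), written 5′ to 3′ on the gene's own strand. Capitals mark matches, on either strand, to the motifs searched: TEAD (GGAATG), ETS (AGGAAG), NKX2-1 (CAAGTG), FOX (TGTTTA), KLF (GGGTGTG) and the GC box (GGGCGG). The TEAD and ETS letters share GGAA.
Ager, chr17:34597600-34597849, plus strand: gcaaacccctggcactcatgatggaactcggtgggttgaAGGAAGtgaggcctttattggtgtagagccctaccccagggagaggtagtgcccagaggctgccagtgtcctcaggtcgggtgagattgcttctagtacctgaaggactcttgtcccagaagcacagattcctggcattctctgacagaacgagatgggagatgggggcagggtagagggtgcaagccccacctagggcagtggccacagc
Cav1, chr6:17306085-17306334, plus strand: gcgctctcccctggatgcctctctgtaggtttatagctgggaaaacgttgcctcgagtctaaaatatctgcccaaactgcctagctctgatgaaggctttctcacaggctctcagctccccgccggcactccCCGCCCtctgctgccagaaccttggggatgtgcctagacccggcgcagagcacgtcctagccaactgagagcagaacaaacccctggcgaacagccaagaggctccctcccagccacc
Clic5, chr17:44188322-44188571, plus strand: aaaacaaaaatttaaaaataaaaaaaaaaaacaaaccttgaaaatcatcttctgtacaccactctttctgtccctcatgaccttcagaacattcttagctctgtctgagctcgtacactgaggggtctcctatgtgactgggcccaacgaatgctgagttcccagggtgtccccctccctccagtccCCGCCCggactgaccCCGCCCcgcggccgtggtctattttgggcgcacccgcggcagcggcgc
Emp2, chr16:10313969-10314218, minus strand: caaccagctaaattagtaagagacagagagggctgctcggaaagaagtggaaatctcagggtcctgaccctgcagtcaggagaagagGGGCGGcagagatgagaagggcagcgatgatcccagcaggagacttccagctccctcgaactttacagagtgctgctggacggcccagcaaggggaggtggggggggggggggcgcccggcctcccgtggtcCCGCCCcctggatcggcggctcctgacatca

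The ETS letters of Ager lie 211 bases before the start. The GC box letters of Cav1 lie on the opposite strand 118 bases before the start, those of Clic5 on the opposite strand at 63 and 48 bases, and those of Emp2 at 163 bases and, on the opposite strand, at 31 bases. Among all 32851 upstream windows of this length, 29.5% hold the ETS letters and 32.7% the GC box. Of the other members, 5 had an entry and Rtkn2 is only named. Hopx and Cav1 had a second entry each, with no match. Hopx had an ETS match, Pdpn a FOX match (FOX is in 12.0% of all windows), Aqp5 and Akap5 had GC boxes and Cavin2 had no match. No window of a member held the TEAD (12.6% of all windows), NKX2-1 (11.6%) or KLF (6.93%) letters. CpG dinucleotides numbered 38 in the Aqp5 window, 20 in Akap5, 13 in Clic5, 11 in Emp2, 10 in the Cav1 window shown, 8 in the first Hopx entry, 3 in Ager and 2 in Pdpn and Cavin2, against a median of 6 over all windows. The Aqp5 window, chr15:99590778-99591027, lies mostly inside the gene as annotated by GENCODE, which starts at 99590782. The windows of the second Hopx and Cav1 entries also lie inside their annotated genes. These matches describe letters in a window and were not tested as binding sites.

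Epithelium held the highest levels of most members. A gene was counted as present in a class where its CPM was at least 2-fold that of B cells, taken as a low reference class, with the interval of the ratio above 1. By this rule all 10 members were present in alveolar epithelial cells, where 25.8% of the 12572 genes measured passed the same rule. Endothelial cells passed it for 6 members (Ager, Hopx, Cav1, Cavin2, Clic5 and Emp2), against 29.4% of all genes. Stromal cells, the sum of fibroblasts and mural cells, passed it for 5 (Pdpn, Aqp5, Cav1, Cavin2 and Emp2), against 27.9%, and all myeloid cells together for 5 (Ager, Pdpn, Cav1, Akap5 and Emp2), against 23.5%. The median log2 ratio of the members to B cells was 5.72 in epithelium over all 10 genes, 2.32 in endothelium over 9 genes, 4.46 in stroma over 8 and 1.77 in myeloid cells over 9, while the medians over all genes were 0.03, 0.38, 0.30 and 0.17. In the members' medians a gene with no UMI in B cells was set at the ratio that 3 UMIs would give, and Rtkn2 in endothelium and myeloid cells and Rtkn2 and Clic5 in stroma, with 2 UMIs or fewer, were left out. Genes with no UMI in either class were left out of the medians over all genes. The UMIs behind these calls ranged from 4 for stromal Aqp5 to 4090 for epithelial Ager.

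**Figure D1:**
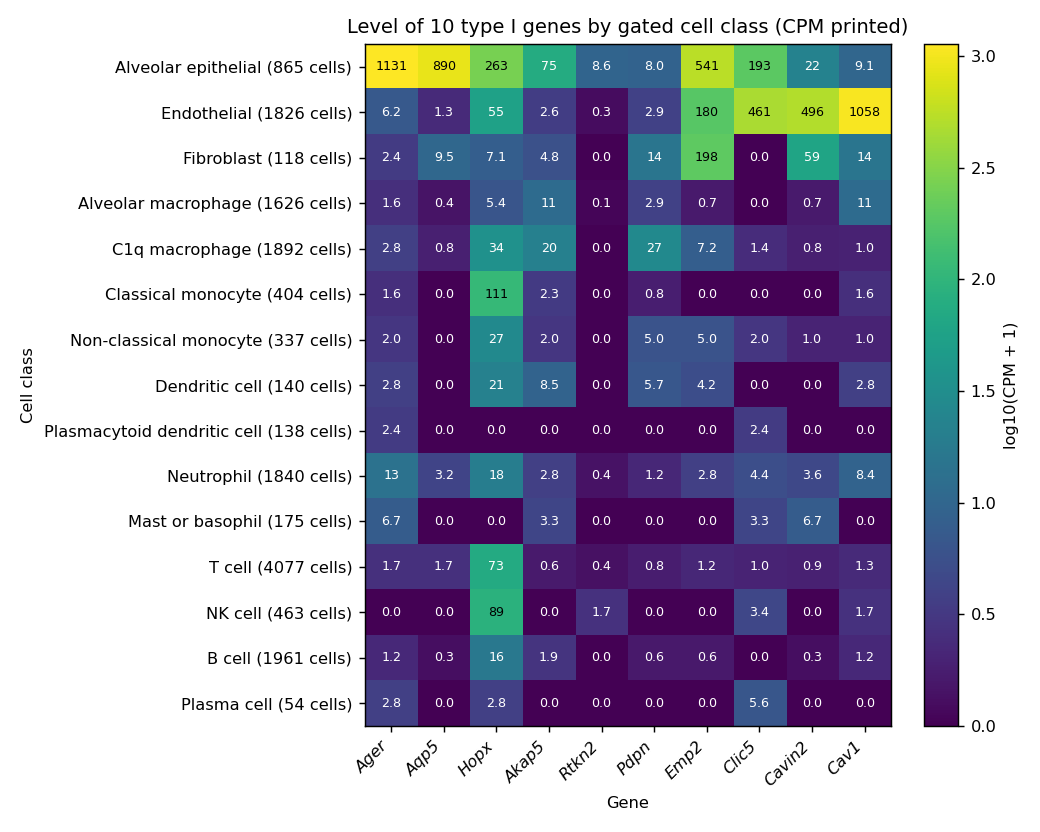
Heat map of the 10 ATI genes (columns) in the 15 cell classes of at least 50 cells (rows), coloured by log10(CPM + 1) with the CPM printed in each cell. Ager and Aqp5 peak in alveolar epithelial cells at 1131 and 890 CPM, Cav1 and Cavin2 in endothelial cells at 1058 and 496 CPM and Pdpn in C1q macrophages at 26.9 CPM, and Hopx is spread over several classes.

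Carried-over RNA was gauged with tracers. Sftpc, the surfactant protein C gene, reached 94420 CPM in alveolar epithelial cells and was still seen at 129 CPM in endothelial, 107 CPM in B, 99.4 CPM in C1q macrophage, 44.6 CPM in alveolar macrophage and 284.5 CPM in neutrophil classes. If all Sftpc there were epithelial RNA, the epithelial ratio of each gene to Sftpc gives the level that such RNA would bring. The same was done for endothelial RNA with the summed endothelial markers. Some of these, such as Pecam1 (69.9 CPM in B cells), are also found in leukocytes, so that this second estimate can be too high in them. It can be too high in epithelium and fibroblasts as well. Pecam1 and Cdh5, at 843 and 965 CPM in endothelium, were at 1.38 and 1.11 CPM in epithelium and had no UMI in fibroblasts. The epithelial estimate rests on the profile of the whole epithelium, which surfactant-rich cells dominate. With the profile of ATII-low cells, defined below, scaled by Sftpc, it was far higher, at 43.0 CPM of Ager in B cells, where 1.25 CPM was measured. With that profile scaled by Ager, the estimates in C1q macrophages were 1.06 CPM of Hopx, 0.295 CPM of Akap5 and 0.0307 CPM of Pdpn. A level at or below its estimate from whole epithelium or endothelium was read as background, except for Cav1 of epithelium and fibroblasts. The ATII-low estimates are given beside the levels they bear on.

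**Figure D2:**
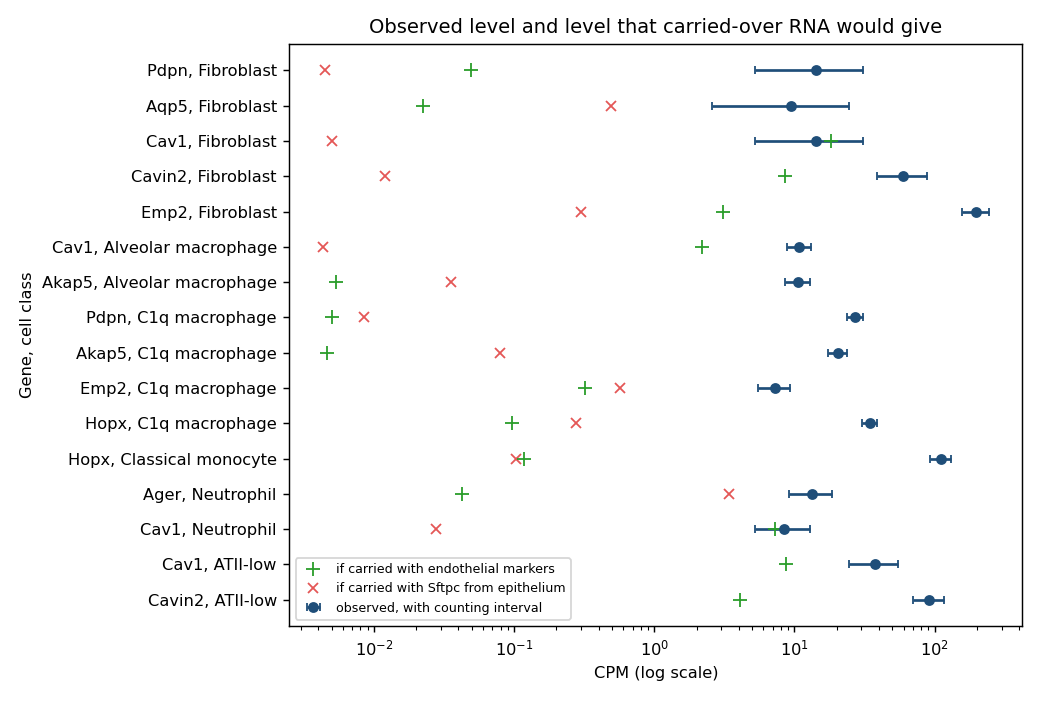
Observed level (blue points with 95% counting intervals) of 16 gene and class pairs, on a log CPM axis, beside the level that RNA carried over with Sftpc from epithelium (red crosses) or with endothelial markers (green plus signs) would give; the epithelial estimate is not drawn for ATII-low cells, which are epithelial. Cav1 of fibroblasts and of neutrophils, at 14.3 and 8.44 CPM, sits at its endothelial estimate, which can be too high in both classes. Pdpn and Akap5 of C1q macrophages, at 26.9 and 20.4 CPM, lie far above theirs.

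Ager encodes the receptor for advanced glycation end products, a surface receptor that is concentrated on ATI cells in normal lung. Its level was 1131 CPM in alveolar epithelial cells (95% interval 1096 to 1166, from 4090 UMIs). No other class with at least 50 cells exceeded 13.3 CPM, the level in neutrophils (9.13 to 18.6, from 33 UMIs), and the airway and mural classes had no UMI. The endothelial level was 6.22 CPM (3.99 to 9.26, from 24 UMIs), where the estimate for carried-over epithelial RNA was 1.54 CPM with the whole epithelium and 51.9 CPM with ATII-low cells as its source, and in neutrophils it was 3.41 and 114 CPM. Alveolar macrophages had 1.56 CPM, C1q macrophages 2.78 CPM, T cells 1.68 CPM and B cells 1.25 CPM, the latter pair at or near the estimates of 2.04 and 1.28 CPM. Endothelium was 182-fold below epithelium, with a log2 ratio of -7.51 (-8.15 to -6.93). After thinning to 1000 UMIs, 53.3% of 836 epithelial cells had an Ager UMI (81.4% unthinned), against 0.182% of 1648 endothelial cells and 0.182% of 1644 B cells, so its endothelial presence call was not matched by a share of cells above that of B cells. The call was lost when Scrublet doublets were removed, with Louvain clusters in place of marker gates, with the mean of per-cell CPM, and when cells with 2 or more markers of another compartment were left out.

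Aqp5, a water channel of the apical membrane, had 890 CPM in epithelium (859 to 921, from 3219 UMIs). It was 687-fold lower in endothelium, at 1.30 CPM (0.421 to 3.02, from 5 UMIs) and a log2 ratio of -9.42 (-11.05 to -8.20), beside an estimate of 1.22 CPM for epithelial RNA. Alveolar macrophages (0.446 CPM), C1q macrophages (0.846 CPM) and T cells (1.68 CPM) were likewise at their estimates of 0.421, 0.937 and 1.60 CPM. Fibroblasts had 9.52 CPM (2.59 to 24.4), from only 4 UMIs, above an estimate of 0.493 CPM. With the ATII-low profile the estimate was 11.2 CPM scaled by Sftpc and 1.27 CPM scaled by Ager, of which fibroblasts had 1 UMI. Of 1644 thinned B cells, 0 had an Aqp5 UMI, which by a floor of 3 cells allows a share of cells with a UMI of up to 0.182%, and 53.5% of epithelial cells had one.

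Rtkn2 was the scarcest member outside epithelium. Its 31 epithelial UMIs gave 8.57 CPM (5.82 to 12.2), and endothelial, alveolar macrophage and neutrophil classes had 1 UMI each, T cells 3 and C1q macrophages and fibroblasts none. Epithelium was at least 9.16-fold above B cells, which had no UMI, taking 3 UMIs in B cells as the floor. Thinned shares were 1.20% in epithelium and 0 of 1644 in B cells.

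Akap5, an anchor that holds protein kinase A near the membrane, was epithelial and also macrophage. Epithelial cells had 75.5 CPM (66.8 to 85.0, from 273 UMIs), C1q macrophages 20.4 CPM (17.5 to 23.7, from 169 UMIs), alveolar macrophages 10.6 CPM (from 95 UMIs) and dendritic cells 8.48 CPM (3.11 to 18.5, from 6 UMIs). Endothelial cells, at 2.59 CPM, and classical monocytes, at 2.34 CPM, overlapped B cells, at 1.87 CPM (endothelial log2 ratio 0.47, -1.13 to 2.21). Epithelium was 29.1-fold above endothelium and 3.70-fold above C1q macrophages, and C1q macrophages were 1.93-fold above alveolar macrophages. The estimate for RNA of the whole epithelium was 0.0795 CPM in C1q and 0.0357 CPM in alveolar macrophages, and with the ATII-low profile 4.25 and 1.91 CPM. The thinned share was 1.86% of 1878 C1q macrophages, 1.06% of 1607 alveolar macrophages and 8.25% of epithelial cells.

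Cav1, the main coat protein of caveolae, and Cavin2, a partner that shapes the caveolar coat, were highest in endothelium and low in the epithelium of these tumors. Cav1 had 1058 CPM in endothelium (1026 to 1091, from 4084 UMIs) and 9.12 CPM in alveolar epithelium (6.28 to 12.8, from 33 UMIs), a 116-fold difference with a log2 ratio of 6.86 (6.37 to 7.40). The epithelial level was close to the 8.61 CPM that the summed endothelial markers gave for carried-over RNA, an estimate that can be too high here. Of those markers, Pecam1 was 1.38 CPM in epithelium and 843 CPM in endothelium, and Cdh5 was 1.11 and 965 CPM. The source of the epithelial Cav1 UMIs was not tested. Cavin2 had 496 CPM in endothelium (474 to 519) and 21.6 CPM in epithelium (17.0 to 26.9), where the estimate was 4.04 CPM. It was 23.0-fold higher in endothelium, with a log2 ratio of 4.52. A Cav1 UMI was present in 60.0% of endothelial and 1.56% of epithelial cells after thinning, and in 0.122% of B cells. For Cavin2 the shares were 34.6% of endothelial and 1.79% of epithelial cells.

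Clic5, a chloride intracellular channel protein that ties the membrane to the cortical cytoskeleton, was shared. Endothelium had 461 CPM (440 to 483, from 1780 UMIs) and epithelium 193 CPM (179 to 207, from 697 UMIs), a 2.40-fold difference with a log2 ratio of 1.26 (1.13 to 1.39). B cells had no UMI, so endothelium was at least 493-fold and epithelium at least 206-fold above them with 3 UMIs in B cells as the floor. Fibroblasts and alveolar macrophages had no Clic5 UMI, with upper limits of 8.78 and 0.412 CPM, and neutrophils, at 4.42 CPM, were near the 3.17 CPM of carried-over endothelial RNA. The size of the difference moved with the processing. When cells with 2 or more markers of another compartment were left out, which kept 328 epithelial and 1166 endothelial cells, the log2 ratio was 0.15 (-0.02 to 0.32), and with the mean of per-cell CPM it was 0.89, both under the 2-fold limit.

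Emp2, a small membrane protein of the claudin-like EMP family that organises lipid rafts and integrins, was present in epithelium, endothelium and stroma. Epithelium had 541 CPM (518 to 566), endothelium 180 CPM (167 to 194) and fibroblasts 198 CPM (157 to 245, from 83 UMIs), and the 7 mural cells had 497 CPM from 9 UMIs. Epithelium exceeded endothelium, with a log2 ratio of endothelium to epithelium of -1.59 (-1.71 to -1.46). Fibroblasts did not differ from endothelium beyond counting error, with a log2 ratio of 0.13 (-0.22 to 0.46). C1q macrophages had 7.25 CPM (5.53 to 9.33, from 60 UMIs), above estimates of 0.570 and 0.320 CPM for epithelial and endothelial RNA but below 20.0 CPM for the ATII-low profile scaled by Sftpc (1.39 CPM scaled by Ager), and alveolar macrophages had 0.669 CPM. B cells had 0.624 CPM.

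Pdpn, the mucin-like surface protein podoplanin, was low in this epithelium, at 8.02 CPM (5.37 to 11.5, from 29 UMIs). Its highest level among classes of at least 50 cells was in C1q macrophages, 26.9 CPM (23.5 to 30.7, from 223 UMIs). That was 3.36-fold above epithelium, with a log2 ratio of 1.75 (1.19 to 2.36), and 9.29-fold above alveolar macrophages. Fibroblasts followed with 14.3 CPM (5.24 to 31.1), from only 6 UMIs, and their interval overlapped those of C1q macrophages and epithelium. The estimate for carried-over RNA in C1q macrophages was 0.00844 CPM with the profile of the whole epithelium and 0.442 CPM with that of ATII-low cells. These macrophages had 305 CPM of Epcam, an epithelial gate marker, but their Ager and Sftpc levels, 2.78 and 99.4 CPM, are to be set beside 1.25 and 107 CPM in B cells. The source of the Epcam UMIs was not tested.

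Hopx, a homeodomain protein that does not itself bind DNA and marks ATI cells, was the most widely spread member. The order of the classes was alveolar epithelium at 263 CPM (247 to 280), classical monocytes at 111 CPM (93.4 to 131), NK cells at 88.8 CPM (66.3 to 116), T cells at 73.2 CPM (67.3 to 79.5), endothelium at 54.7 CPM (47.6 to 62.6), C1q macrophages at 34.3 CPM (30.4 to 38.5) and non-classical monocytes at 27.0 CPM (17.8 to 39.3). The intervals of monocytes and NK cells overlapped, as did those of NK and T cells. The 15 airway epithelial cells had 398 CPM (258 to 588, from 25 UMIs). Alveolar macrophages, at 5.36 CPM, lay below B cells, at 15.6 CPM (11.6 to 20.6), while plasmacytoid dendritic cells and mast cells or basophils had no Hopx UMI, with upper limits of 8.69 and 12.3 CPM. B cells were therefore not a Hopx-free reference. Against B cells the level was 7.11-fold higher in classical monocytes, 5.69-fold in NK cells, 4.69-fold in T cells, 3.50-fold in endothelium and 2.20-fold in C1q macrophages. Myeloid cells as a whole were 1.54-fold above B cells and did not pass the presence rule. They included the neutrophils, at 18.5 CPM (13.5 to 24.6). Carried-over RNA of the whole epithelium was estimated at 0.793 CPM of Hopx or less in leukocytes. With the ATII-low profile scaled by Sftpc the estimates were 5.64 CPM in classical monocytes, 10.2 CPM in NK, 26.1 CPM in T, 15.3 CPM in C1q macrophage and 19.8 CPM in endothelial cells, below the measured levels. In B cells and neutrophils they were 16.4 and 43.7 CPM, at or above the measured levels. Scaled by Ager, the same profile gave 0.477 CPM in B cells and 5.07 CPM in neutrophils, below the measured levels. Thinned shares were 18.2% of epithelial cells, 10.0% of 400 classical monocytes, 6.93% of 303 NK cells, 5.47% of 3803 T cells, 4.85% of endothelial cells and 1.64% of B cells.

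**Figure D3:**
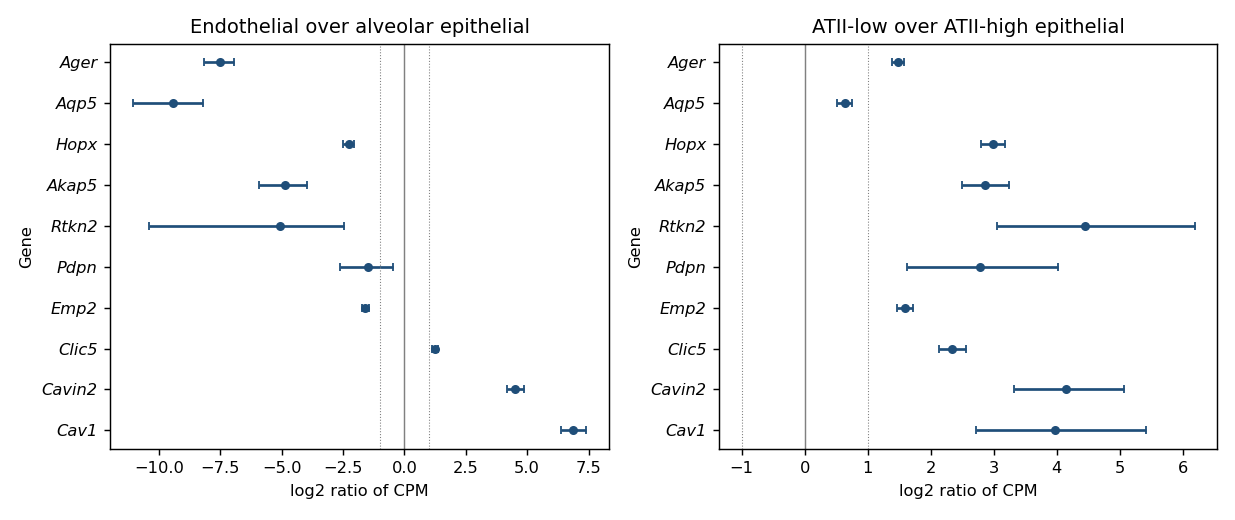
Log2 ratio of CPM for each member, endothelial over alveolar epithelial cells on the left and ATII-low over ATII-high epithelial cells on the right, with 95% counting intervals, a line at 0 and dotted lines at the 2-fold limits. On the left Cav1, Cavin2 and Clic5 lie on the endothelial side, at 6.86, 4.52 and 1.26, and the other 7 members on the epithelial side, and on the right all 10 lie above 0, with Aqp5 lowest at 0.63.

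Between endothelium and epithelium, then, 3 of the 10 members were higher in endothelium by at least 2-fold (Cav1, Cavin2 and Clic5), where 25.6% of all genes were, and 7 were higher in epithelium, where 13.5% were. The median log2 ratio of endothelium to epithelium was -1.93 for the members and 0.39 for all genes. Related genes were read from lists chosen together with the members. Of 24 other ATI genes, 2 were higher in endothelium and 17 in epithelium. The former were Timp3, a protease inhibitor of the matrix (678 against 191 CPM), and Ahnak, a large scaffold protein (305 against 146 CPM), and the latter included Cldn18, a lung claudin that was also a gate marker (1197 against 4.92 CPM in endothelium), the keratin gene Krt7 (240 against 1.30 CPM) and the basement membrane collagen Col4a4 (68.3 against 0.778 CPM). The caveola genes went with Cav1: 5 of 7 were higher in endothelium, among them Cav2 (313 against 27.9 CPM) and Cavin1 (289 against 55.8 CPM), and Pacsin3 alone was higher in epithelium (23.5 against 1.04 CPM).

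Relatives of the members were split between the same classes. Among CLIC genes, Clic4 (555 against 56.1 CPM) and Clic1 (709 against 217 CPM) were higher in endothelium and Clic3 (1.04 against 223 CPM) in epithelium. All 3 relatives of Emp2 were higher in endothelium, Emp1 at 353 against 27.1 CPM, Pmp22 at 166 against 55.0 CPM and Emp3 at 113 against 32.9 CPM, opposite to Emp2 itself. Of 4 measured aquaporins only Aqp1, the water channel of capillaries, passed, at 975 CPM in endothelium against 5.25 CPM in epithelium. Of 5 measured AGER ligands, S100a4, S100a8 and S100a9 were higher in endothelium (S100a4 at 32.1 against 4.70 CPM), and S100a8 and S100a9 were also neutrophil gate markers. Of 5 podoplanin partners, the receptor Clec1b (7.52 against 0 CPM) and the linker Msn (589 against 177 CPM) were higher in endothelium, and the linker Ezr (37.3 against 267 CPM) and the adhesion receptor Cd44 (30.8 against 167 CPM) in epithelium.

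Within endothelium the members did not travel together. The 1826 cells were sorted by subset markers into 1515 general capillary cells, 96 aerocytes (the large, Car4-positive capillary cells that face ATI cells), 31 larger vessel cells and 20 lymphatic cells, and 164 had no leading subset. The levels of these markers restate the sorting and are given as a description. Car4 was 2114 CPM in aerocytes and 139 CPM in general capillary cells, Ednrb 908 and 38.9 CPM, and Gpihbp1 746 and 1579 CPM. Vwf was 1871 CPM in larger vessel cells, and Prox1 and Mmrn1 were 430 and 972 CPM in lymphatic cells.

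Aerocytes exceeded general capillary cells by at least 2-fold in 3 of the 10 members (Hopx, Clic5 and Emp2), where 5.85% of all genes did. In aerocytes 3 UMIs amount to 15.7 CPM, so scarce genes passed less readily there than abundant ones, which lowers that share. Emp2 was 2078 CPM in aerocytes (1878 to 2292, from 398 UMIs) and 73.7 CPM in general capillary cells (64.6 to 83.7), a 28.2-fold difference with a log2 ratio of 4.82 (4.58 to 5.06). Hopx was 538 CPM (439 to 652, from 103 UMIs) against 30.5 CPM (24.7 to 37.1), 17.7-fold higher (log2 4.14, 3.73 to 4.56). Clic5 was 950 against 453 CPM, 2.10-fold higher (log2 1.07, 0.84 to 1.29). Cavin2 was 720 against 480 CPM (log2 0.59, 0.32 to 0.84) and Cav1 898 against 1126 CPM (log2 -0.33, -0.56 to -0.11), both within 2-fold.

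The same 96 aerocytes had no UMI of Ager, Aqp5, Akap5 or Pdpn, which puts each at or below 19.3 CPM, and 1 UMI of Rtkn2. Their Sftpc level, 104 CPM, did not exceed that of general capillary cells (132 CPM), and the estimate for RNA of the whole epithelium was 0.598 CPM of Emp2 and 0.291 CPM of Hopx. With the ATII-low profile scaled by Sftpc it was 21.0 and 16.0 CPM. Scgb1a1, the club cell secretoglobin gene, was 146 CPM in aerocytes, with all 28 UMIs in 1 cell, and without that cell Emp2 was 2072 CPM and Hopx 541 CPM. The AGER ligand genes S100a8 (303 against 42.6 CPM) and S100a9 (334 against 51.3 CPM) were higher than in general capillary cells, in 8 and 9 of the 96 aerocytes. The part of these in the result was not tested. After thinning, 70.6% of 85 aerocytes had an Emp2 UMI, 57.6% a Clic5 UMI and 36.5% a Hopx UMI, against 5.98%, 36.2% and 3.17% of 1389 general capillary cells. Of the 31 aerocytes with a Hopx UMI, 29 had an Emp2 UMI, 21 a Clic5 UMI and none an Ager UMI.

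Among the related lists, 6 of 20 measured other ATI genes were higher in aerocytes than in general capillary cells, including Timp3 (2767 against 549 CPM), the adaptor Lmo7 (110 against 10.3 CPM), the cell cycle inhibitor Cdkn2b (52.2 against 2.18 CPM) and Bcam (407 against 155 CPM), and 2 were lower (Vegfa at 52.2 against 179 CPM and Ahnak at 131 against 316 CPM). Pmp22, the relative of Emp2, was 1023 against 119 CPM. No caveola gene was higher, and Cavin1 was lower, at 146 against 303 CPM.

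**Figure D4:**
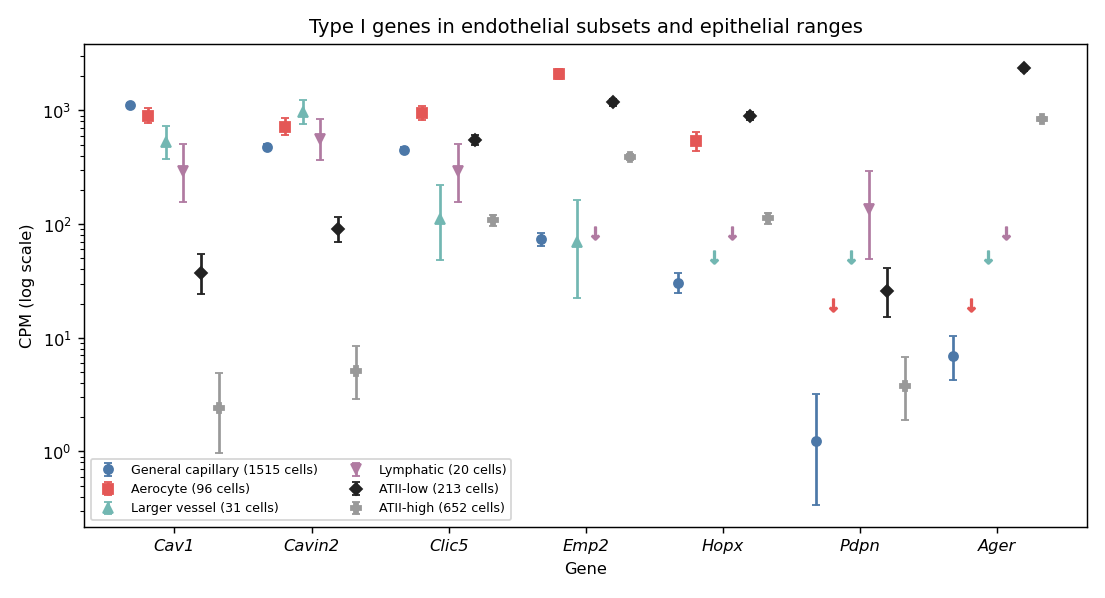
Level (CPM, log scale) of 7 members in 4 endothelial subsets and in ATII-low and ATII-high epithelial cells, with 95% counting intervals and downward arrows at the upper limit where no UMI was seen. Aerocytes hold Emp2, Hopx and Clic5 at 2078, 538 and 950 CPM without a UMI of Ager, and lymphatic cells hold Pdpn at 136 CPM.

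Pdpn was highest in another vessel type. Lymphatic cells had 136 CPM (49.8 to 295, from 6 UMIs in 20 cells), general capillary cells 1.24 CPM from 4 UMIs, and aerocytes and larger vessel cells none. The lymphatic level was 109-fold that of general capillary cells, with a wide interval on the log2 scale (6.77, 4.69 to 9.04). Larger vessel cells had 527 CPM of Cav1, 2.14-fold below general capillary cells, and 970 CPM of Cavin2, 2.02-fold above them, so these caveola genes differed in opposite directions there. Clic5 was 4.08-fold lower in larger vessel cells (111 CPM), and neither larger vessel nor lymphatic cells had a Hopx UMI, with upper limits of 51.1 and 83.4 CPM. Lymphatic cells also had no Emp2 UMI, with an upper limit of 83.4 CPM. These limits lie above the general capillary levels of 30.5 CPM for Hopx and 73.7 CPM for Emp2. The absence of a UMI therefore does not separate these small subsets from general capillary cells.

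The epithelium itself was then divided by its ATII program, to ask how the members vary among tumor epithelial cells. Cells with under 5% of their UMIs from 10 ATII genes (Sftpc, Sftpb, Sftpa1, Sftpd, Lamp3, Slc34a2, Napsa, Abca3, Cxcl15 and Lyz2) are called ATII-low (213 cells) and the other 652 ATII-high. This is a cut on a range and not a cell type: 47 cells lay at 2 to 5% and 104 at 5 to 10%. In 4 of the ATII-low cells, none with a TdTomato UMI, Scgb1a1 made up at least 49.4% of the UMIs, which marks them as unlike the rest, where it reached at most 0.319%. These 4 cells had 1 Ager and 1 Hopx UMI, and without them the ATII-low level of Ager was 2550 CPM in place of 2346 and that of Hopx 973 in place of 896.

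ATII-low cells exceeded ATII-high cells by at least 2-fold in 9 of 10 members, where 7.8% of all genes did, and the median log2 ratio was 2.83 over the members and 0.19 over all genes. The fold was 7.94 for Hopx (896 against 113 CPM), 7.29 for Akap5 (249 against 34.2 CPM), 6.89 for Pdpn (25.9 against 3.76 CPM), 5.08 for Clic5 (549 against 108 CPM), 3.01 for Emp2 (1176 against 391 CPM) and 2.79 for Ager (2346 against 842 CPM). Rtkn2 was 21.9-fold higher, at 37.5 against 1.71 CPM, with a log2 ratio of 4.45 (3.05 to 6.19). Aqp5 differed least, at 1248 against 805 CPM, a log2 ratio of 0.63 (0.52 to 0.75). It was therefore abundant in cells of both kinds, and after thinning 63.1% of 203 ATII-low and 50.4% of 633 ATII-high cells had an Aqp5 UMI.

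The caveola pair followed the same axis at low levels. Cav1 was 37.5 CPM in ATII-low cells (24.5 to 54.9, from 26 UMIs) and 2.39 CPM in ATII-high cells (0.963 to 4.93, from 7 UMIs), where carried-over endothelial RNA would bring 8.70 and 8.59 CPM. Cavin2 was 90.8 CPM (69.8 to 116) and 5.13 CPM (2.87 to 8.46), against estimates of 4.08 and 4.03 CPM. Both genes thus stood above the estimate in ATII-low cells and near or below it in ATII-high cells, and the summed estimates were alike. Single endothelial markers nevertheless differed, Gpihbp1 having 9 UMIs in 4 ATII-low cells against 1 UMI in ATII-high cells and Vwf 5 UMIs against 0. In the 187 ATII-low cells without a UMI of an endothelial marker, Cav1 was 23.2 CPM (12.7 to 38.9) and Cavin2 91.1 CPM (68.6 to 119), and in the 486 such ATII-high cells they were 3.02 and 7.06 CPM. Even in ATII-low cells the levels stayed below endothelium, 28.3-fold for Cav1 and 5.46-fold for Cavin2. For Clic5 the order was the other way, with ATII-low cells 1.19-fold above endothelium (log2 ratio of endothelium to ATII-low -0.25, -0.41 to -0.09).

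Surfactant RNA takes a large share of an ATII-high cell's UMIs, which by construction lowers the CPM of other genes there. With the 10 ATII genes left out of the totals the log2 ratios were 2.75 for Hopx, 2.63 for Akap5, 1.36 for Emp2, 1.24 for Ager and 0.40 for Aqp5, and the same 9 members passed. The members also differed along the range of the ATII share, from under 2% (166 cells) through 2 to 5% and 5 to 10% to 10% or more (548 cells). Hopx was 960, 698, 348 and 77.8 CPM in these 4 bins, Akap5 276, 166, 156 and 16.1 CPM, Clic5 590, 420, 224 and 90.8 CPM, Emp2 1242, 970, 686 and 347 CPM and Ager 2548, 1716, 1363 and 764 CPM. Aqp5 went from 1280 to 784 CPM over the same bins. TdTomato was between 5123 and 6136 CPM in every bin, and Krt8, a keratin gene of transitional cells and a gate marker, went from 1805 to 363 CPM.

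**Figure D5:**
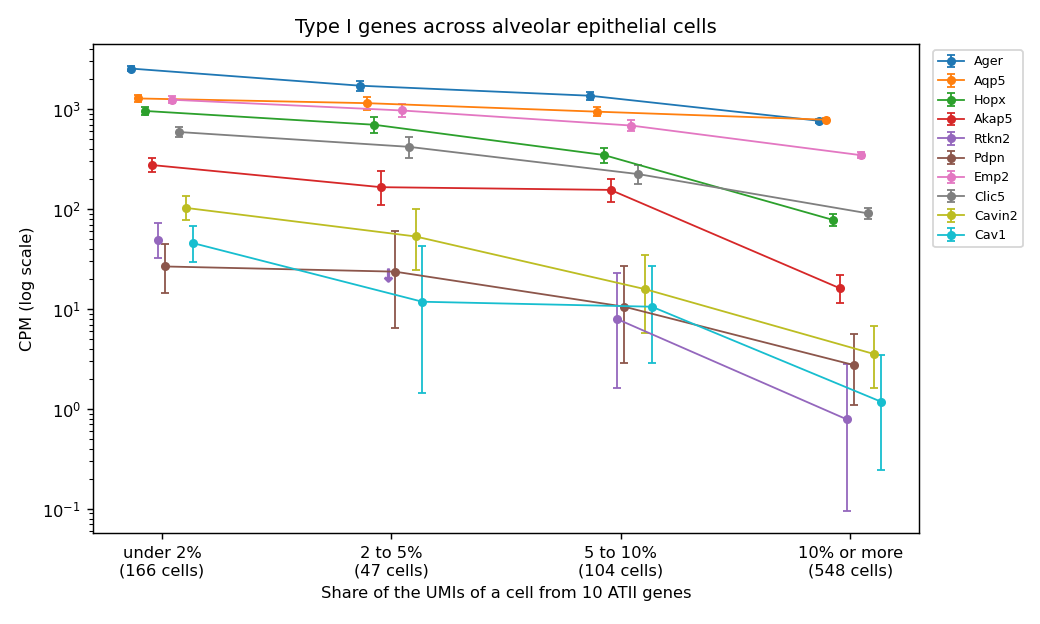
Level of each member (CPM, log scale) in 4 bins of the share of a cell's UMIs from 10 ATII genes, with 95% counting intervals, downward arrows at the upper limit where no UMI was seen, and lines joining neighbouring bins that had UMIs. Hopx goes from 960 to 77.8 CPM and Ager from 2548 to 764 CPM as the ATII share increases, while Aqp5 goes from 1280 to 784 CPM.

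Members were often found in the same cells. A median of 4 of the 10 members had a UMI in ATII-low cells thinned to 1000 UMIs and 1 in ATII-high cells, and at least 3 were found in 64.0% and 19.7% of cells. Of 89 ATII-low cells with a Hopx UMI, 82 had an Ager UMI, 79 an Emp2 UMI, 75 an Aqp5 UMI and 60 a Clic5 UMI, while of the 114 without Hopx 55 had Ager. In ATII-high cells 49 of 63 with Hopx had Ager, and 260 of 570 without Hopx did. Ager was thus also common in cells in which Hopx was not seen. Of the cells with an Akap5 UMI, 37 of 48 ATII-low and 9 of 21 ATII-high cells had Hopx. At 1000 UMIs a missing UMI does not show that a gene is off, so these are counts and not classes.

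Other ATI genes went the same way as the members along the ATII axis: 19 of 24 were higher in ATII-low cells and none lower. Examples are S100a6, a calcium-binding protein (11670 against 752 CPM), the proteoglycan gene Spock2 (70.6 against 0.684 CPM), Krt7 (683 against 136 CPM) and the laminin chain Lama3 (92.2 against 11.0 CPM). Of the caveola genes 4 of 6 were higher (Cav2 at 62.0 against 19.8 CPM), and all 3 relatives of Emp2 were (Emp1 at 105 against 8.55 CPM).

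Stromal cells were few. Of the 5 members present there, Emp2 (210 CPM, from 92 UMIs) and Cavin2 (59.3 CPM, from 26 UMIs) rested on more than 20 UMIs, and Cavin2 of fibroblasts, at 59.5 CPM (38.5 to 87.8), lay above the 8.53 CPM of carried-over endothelial RNA. Fibroblast Cav1, at 14.3 CPM from 6 UMIs, was below its estimate of 18.2 CPM from the summed endothelial markers. Fibroblasts had no Pecam1 or Cdh5 UMI, so that estimate can be too high, and the source of this Cav1 was not tested. The stromal call for Cav1 came in equal part from 6 UMIs in 7 mural cells (331 CPM, 122 to 721, estimate 23.8 CPM). The calls for Pdpn (6 UMIs) and Aqp5 (4 UMIs) were lost when cells with 2 or more markers of another compartment were left out. Of the related lists, 11 of 18 measured other ATI genes and 6 of 8 caveola genes passed in stroma against B cells, where 27.9% of all genes did, including Timp3 (1891 CPM), Igfbp2 (79.8 CPM), Cavin3 (189 CPM) and Cavin1 (116 CPM). The AGER ligand S100b reached 176 CPM.

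Myeloid cells differed by class. Pdpn and Akap5 were highest in C1q macrophages, Cav1 in alveolar macrophages and Hopx in classical monocytes. The Akap5 interval of C1q macrophages (17.5 to 23.7) overlapped those of dendritic cells (3.11 to 18.5) and of mast cells or basophils (0.0847 to 18.6). Cav1 was 10.8 CPM in alveolar macrophages (8.78 to 13.2, from 97 UMIs), above the 2.19 CPM of endothelial RNA and 11.2-fold above C1q macrophages (0.967 CPM, estimate 1.88 CPM). The Cav1 interval of alveolar macrophages overlapped those of epithelium, neutrophils (5.22 to 12.9) and dendritic cells (0.342 to 10.2). It also reached below the upper limit of mast cells or basophils (12.3 CPM), which had no UMI. A Cav1 UMI was found in 1.24% of alveolar macrophages after thinning. In neutrophils Cav1 was 8.44 CPM, beside an estimate of 7.28 CPM. Of 22 measured other ATI genes 5 passed in myeloid cells, a share near the 23.5% of all genes, among them S100a6 (2482 against 1185 CPM in B cells) and Ahnak (321 against 156 CPM), and Cav2, which accompanies Cav1 in caveolae, was 22.7 against 1.56 CPM. Emp1, the relative of Emp2, was 143 against 3.12 CPM, a 45.8-fold difference, where that of Emp2 was 5.54-fold (3.46 against 0.624 CPM). The myeloid calls for Ager (79 UMIs), Cav1 (131 UMIs) and Emp2 (81 UMIs) were lost when cells with 2 or more markers of another compartment were left out, and Pdpn and Akap5 were kept. The call for Ager was also lost with at least 4 markers, at least 500 genes, no upper cut-offs, Scrublet doublets removed, Louvain clusters and a 4-fold limit, and that for Emp2 with the mean of per-cell CPM. The Louvain alternative is a weak check on myeloid calls. Of its 8112 myeloid cells, 1567 came from a cluster named C1q macrophage on only 3 raised markers, with a mean log2 fold of 0.07.

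The genes whose levels over the 15 classes of at least 50 cells were most like each member were ranked by Pearson correlation of log2(CPM + 10), as a description. The ranking covered 6075 genes at 50 CPM or more in at least 1 class. Members, gate markers and the reporters were left out of it and so could not be named. Ager was most like Chia1, Wfdc2 and Sftpd (r of 0.99 for each), Aqp5 like Col4a4, Itih4 and Myh7, and Rtkn2 like Wwc1, Igsf5 and S100a14, all highest in epithelium. Cav1 was most like Palmd, Fam181b and Clec14a, Cavin2 like Cdc42ep1, C130074G19Rik and Spry4, and Clic5 like Ptprm, Tmem252 and Tspan15, all highest in endothelium. Emp2 was most like Sh3d19, Gata6 and Gja1. Pdpn was most like Src, Pgf and Ccl8, all highest in C1q macrophages, and Akap5 like Slc15a2, Cbr2 and Gstt3. The gene most like Hopx was Higd1a, at r = 0.86, and Hopx, Pdpn and Akap5 had no gene above 0.95, where Ager had 77 and Aqp5 90, although with a pseudocount of 1 CPM the last 2 counts were 3 and 10. The classes come from a single matrix, and a class that dominates a gene sets its correlation. With a pseudocount of 1 CPM between 0 and 2 of the 3 names were the same for each member.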

How the data were processed

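Single-cell RNA-seq libraries from 4 tumor-bearing mice (2 Restored, 2 Non-Restored) were deposited by the authors as a single matrix of UMI counts per gene and cell, not normalized, which per the file header was written by Cell Ranger 3.0.2 on mm10. The study excluded tdTomato-positive cells that were not epithelial. That step was not repeated here. An allele shared by all 4 mice is not reported here. Cells were kept with at least 200 genes, no more than 2713 genes and no more than 13.4% mitochondrial UMIs (98th percentiles, 13 mitochondrial genes). A cell was assigned to the class, of 18 with 10 markers each, for which most markers had a UMI, with at least 3 markers, a lead of 2 over other compartments and a lead of 1 within its own. Of the cells kept, 3550 (18.2%) met no gate. Doublets were not removed in the main analysis. Scrublet, run as an alternative, called 235 of 20299 cells (1.16%).

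The UMI counts of each class were added up and scaled to its total (CPM). Intervals at 95% were exact Poisson for levels, exact conditional for ratios and Clopper-Pearson for shares, and cover counting error only, on a single pooled sample. No test between conditions was run. Genes at 5 CPM or more in at least 1 of 5 compartments served as the background. Those with few UMIs in a small class, such as aerocytes or ATII-low cells, passed less readily there, which lowers the background share. A ratio of at least 2-fold with its interval above 1 was called, which is a rule of size. Shares of cells rest on random draws of 1000 UMIs from every cell that had as many. Levels, ratios and shares were given for all 10 members, other genes only from the related lists, gate markers or as the 3 most alike. Members, gates and lists were chosen with earlier results of these data known. Endothelial subsets from at least 2 markers, CPM without the ATII genes, leaving out cells with 1% or more Scgb1a1, cells without an endothelial marker or Scgb1a1 UMI, and the ATII-low profile of carried-over RNA were alternatives chosen after seeing the data, as was naming the 4 Scgb1a1-rich cells. Upstream sequences are from RefSeq (GRCm38.p6). Of the 10 members, 9 had an entry. Calculations used Python 3.11.15 with numpy 2.4.6, scipy 1.17.1 and scanpy 1.11.5, and R 4.3.3 with Seurat 5.3.0 for the clustering alternative (2000 variable genes, 25 dimensions, resolution 0.5, members left out). The scripts were tested on simulated data.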

Additional observations from a re-analysis of the deposited data

How the results depend on the processing

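No paired analysis was possible because the files used here do not tie a cell to its mouse, and for the same reason no replicate could be left out. Of 55 counts of members over the alternatives, 53 were within 1.5-fold of the value reported. When cells with 2 or more markers of another compartment were left out, which kept 44 stromal and 4913 myeloid cells, 3 members were present in stromal cells (Cav1, Cavin2 and Emp2) and 2 in myeloid cells (Pdpn and Akap5), in place of 5 and 5. Over all alternatives the count in endothelium ranged from 5 to 7, in stroma from 3 to 6 and in myeloid cells from 2 to 5, and the count higher in ATII-low cells from 7 to 9. Of the members higher in endothelium than in epithelium, only Cav1 and Cavin2 stayed, without Clic5, under some alternatives. These were leaving out cells with 2 or more markers of another compartment, the mean of per-cell CPM and the 4-fold limit. At a 4-fold limit, Hopx lost its endothelial call, Ager its myeloid call, Pdpn and Emp2 theirs in epithelium over endothelium (5 in place of 7), Clic5 its calls above epithelium and in aerocytes, and Ager and Emp2 theirs in ATII-low cells. Hopx and Emp2 were higher in aerocytes under every alternative run. Of 278 log2 ratios under alternatives, 42 lay outside the counting interval of the reported ratio, and over all levels, ratios, shares and lists of alike genes 177 values moved beyond it and 601 did not, and the cause was not tested. No called log2 ratio changed sign. The 96 aerocytes, 118 fibroblasts, 20 lymphatic and 7 mural cells limit what can be said of them: a gene with no UMI could still be at up to 19.3 CPM in aerocytes and 8.78 CPM in fibroblasts.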

Other observations

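Hopx within T cells was divided by further genes, chosen after its values were seen. T cells with a Foxp3 UMI, the marker of regulatory T cells, had 324 CPM of Hopx (282 to 372, in 246 cells), a level above that of alveolar epithelium as a whole (263 CPM). CD8 T cells had 47.7 CPM (662 cells), CD4 T cells without a Foxp3 UMI 48.6 CPM (549 cells) and T cells with a Trdc UMI, a gamma delta receptor gene, 21.3 CPM (204 cells).

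Alveolar macrophages with a TdTomato UMI and those without it were set side by side for the members found in them, also after seeing the values. Cav1 was 10.9 CPM in the 1544 cells with a TdTomato UMI and 9.37 CPM in the 82 without, and Akap5 was 10.7 and 9.37 CPM. In the 82 cells each gene had only 4 UMIs, with an interval of 2.55 to 24.0 CPM. Both genes were thus seen in macrophages without a TdTomato UMI, on few UMIs. The lower limit for Cav1 was near the 2.19 CPM estimated for carried-over endothelial RNA in alveolar macrophages.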
